A study of Mus musculus with 6 samples.

Results

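Glypicans and syndecans are the main families of membrane-bound heparan sulfate proteoglycans. The 9 genes described here are Gpc1, Gpc2, Gpc3, Gpc4 and Gpc6 of the glypicans and Sdc1, Sdc2, Sdc3 and Sdc4 of the syndecans, taken as every probe of the array table whose symbol was one of these names. The table held 11 such probes for 8 of the 9 genes. No probe carried the symbol Gpc6, which was not analysed here. Of the 8990 genes tested in the whole series, 7 were members, since the Gpc2 probe was above background on none of the 6 arrays.

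The arrays measured total RNA of mouse embryonic fibroblasts (MEFs, matrix-producing cells cultured out of embryos) with 1 of 2 forms of NELF-B. NELF-B is a subunit of the negative elongation factor, which holds RNA polymerase II shortly after it starts transcription. In 3 samples the labels give the genotype as truncated NELF-B, named ATG in the titles, and in the other 3 as full length NELF-B, named FL. The genetic background was C57BL/6 throughout, and all cultures stood at 50% confluence in DMEM with 10% serum. The labels do not say how the truncated form was introduced, whether the cells are 1 line or several, or whether replicates came from different cultures, so the spread between them may be technical. The members were selected on the signals of the truncated against the full-length arrays, with results of that comparison already known. Their differences are therefore given as a description with no test.

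A glypican is a globular core protein held to the outer face of the plasma membrane by a glycosylphosphatidylinositol (GPI) anchor, with heparan sulfate chains attached close to the membrane. A syndecan crosses the membrane, carries its chains far out on its ectodomain, and ends in a short cytoplasmic tail that binds PDZ proteins. Through the sugar chains both families hold fibroblast growth factors, Wnts, hedgehogs and chemokines at the cell surface and pass them to their signalling receptors, and syndecans also act with integrins in adhesion to fibronectin.

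NELF holds the polymerase shortly after the start, a stretch that is not shown here. The bases upstream of the start are given as background for Gpc3 and Sdc1, members whose brightest probe was lower with truncated NELF-B. The Sdc1 probes did not all move alike, as given below. They are also given for Sdc4, whose arrays overlapped between the forms after normalization. RefSeq's table for GRCm38.p6 held 6 of the 9 members. Each line gives the 250 bases before the start, 5′ to 3′ on the strand of the gene. Capitals mark the GC box GGGCGG and the CCAAT box CCAAT on either strand, and no matches overlapped.
Gpc3, chrX:52613975-52614224, minus strand: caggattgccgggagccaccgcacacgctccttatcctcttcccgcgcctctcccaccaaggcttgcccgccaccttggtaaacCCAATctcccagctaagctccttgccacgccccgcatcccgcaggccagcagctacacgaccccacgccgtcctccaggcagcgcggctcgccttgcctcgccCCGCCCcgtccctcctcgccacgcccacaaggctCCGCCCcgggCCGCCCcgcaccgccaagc
Sdc1, chr12:8771146-8771395, plus strand: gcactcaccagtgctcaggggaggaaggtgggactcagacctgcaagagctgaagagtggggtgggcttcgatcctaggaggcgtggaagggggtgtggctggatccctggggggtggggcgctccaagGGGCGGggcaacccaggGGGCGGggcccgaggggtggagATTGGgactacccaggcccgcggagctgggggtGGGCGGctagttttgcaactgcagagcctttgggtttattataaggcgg
Sdc4, chr2:164443189-164443438, minus strand: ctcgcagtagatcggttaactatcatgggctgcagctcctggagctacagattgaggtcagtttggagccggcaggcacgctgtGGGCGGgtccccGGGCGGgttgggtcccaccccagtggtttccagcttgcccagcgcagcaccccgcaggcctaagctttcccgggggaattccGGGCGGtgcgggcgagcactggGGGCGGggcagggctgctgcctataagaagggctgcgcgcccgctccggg

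All 6 windows were rich in G and C, at 66.0% to 76.4%, where the median of 32851 mouse windows of the same length was 52.4%. Each of the 6 held at least 1 GC box, a motif present in 32.7% of all windows. Gpc3, Sdc1 and Gpc2 also held a CCAAT box, present in 33.8% of all windows. The TATA box TATAAA was found in none of the 6 on either strand, and in 12.4% of all windows. Only exact matches to these letters were counted, so variants of a box were not. The Gpc3 and Sdc1 windows held 3 GC boxes each and the Sdc4 window 4. A match is a stretch of letters and not a measured site.

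The median signal per array was 143.1 to 152.3 in truncated samples and 144.1 to 151.9 in full-length samples, and 46.4% to 48.7% of probes lay above background. Of the fibroblast markers, Col1a1, Col1a2, Col3a1, Pdgfra, Pdgfrb, Vim and Dcn were above background on all arrays, while Thy1 and Lum were above it on none. No epithelial, endothelial or skeletal muscle marker was above background on all 6 arrays. On 3 or more arrays, 3 epithelial, 1 endothelial and 2 skeletal muscle markers were above it. The brighter Nelfb probe read 7.01 in truncated and 6.69 in full-length cells, a log2 fold change of 0.32 ± 0.11 that did not pass (adjusted p = 0.144, limma). The dimmer Nelfb probe read 5.59 in truncated and 5.63 in full-length cells, a log2 fold change of -0.04 ± 0.18. Nothing places either probe in the transcript. Levels below are background-corrected, quantile-normalized intensities on the log2 scale. Differences are truncated over full-length on that scale, ± the standard error (SE) from limma, with n = 3 arrays per form. A level of one probe cannot be set against that of another, so the genes are not ranked by abundance.

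Gpc3, the X-linked glypican that binds hedgehog and Wnt proteins and whose loss causes overgrowth in mice, was the member that differed most. Its brighter probe read 5.97, 5.97 and 6.23 in truncated cells, against 7.09, 7.02 and 7.49 in full-length cells. Every truncated array lay below every full-length array. The deposited signals behind these values were 169, 180 and 202 in truncated cells, against 265, 262 and 291 in full-length cells, where the array medians were 143.1 to 152.3 in truncated and 144.1 to 151.9 in full-length samples. The log2 fold change was -1.14 ± 0.15, or 2.21-fold lower with truncated NELF-B, the 16th lowest of the 8990 genes.

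The other Gpc3 probe, to the same RefSeq transcript, gave a smaller difference in the same direction. It read 5.77, 6.24 and 5.97 in truncated cells, against 6.39, 6.62 and 6.77 in full-length cells. Truncated and full-length arrays again did not overlap, and the log2 fold change was -0.60 ± 0.15, or 1.51-fold lower. The size of the Gpc3 difference therefore depended on the probe. It also depended on the background correction, at -0.52 without one. In bulk RNA, fewer cells with Gpc3 transcript and less transcript per cell cannot be told apart.

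Gpc1, a broadly expressed glypican and a partner of fibroblast growth factor 2, stood on the other side of 0. It read 11.88, 11.82 and 11.70 in truncated cells, against 11.55, 11.46 and 11.45 in full-length cells. The lowest truncated array was above the highest full-length one. The log2 fold change was 0.31 ± 0.11, or 1.24-fold, higher than that of 90.1% of the genes. Its replicates were close, with a pooled SD of 0.076 where the median gene had 0.159.

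Gpc4, a glypican encoded beside Gpc3 on the X chromosome, was near the limit of detection, on 2 of 3 arrays in each form. It read 5.12, 5.79 and 5.51 in truncated cells, against 4.86, 5.33 and 5.39 in full-length cells. The arrays overlapped, and the log2 fold change of 0.28 ± 0.20 was smaller than the pooled SD of 0.32. The neighbours Gpc3 and Gpc4 thus had differences of opposite sign, the one for Gpc4 within its replicate spread. Gpc2, a glypican of the developing nervous system, was not above background on any array, with deposited signals of 124 to 130 in truncated cells and 124 to 132 in full-length cells, so no fold is given.

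**Figure D1:**
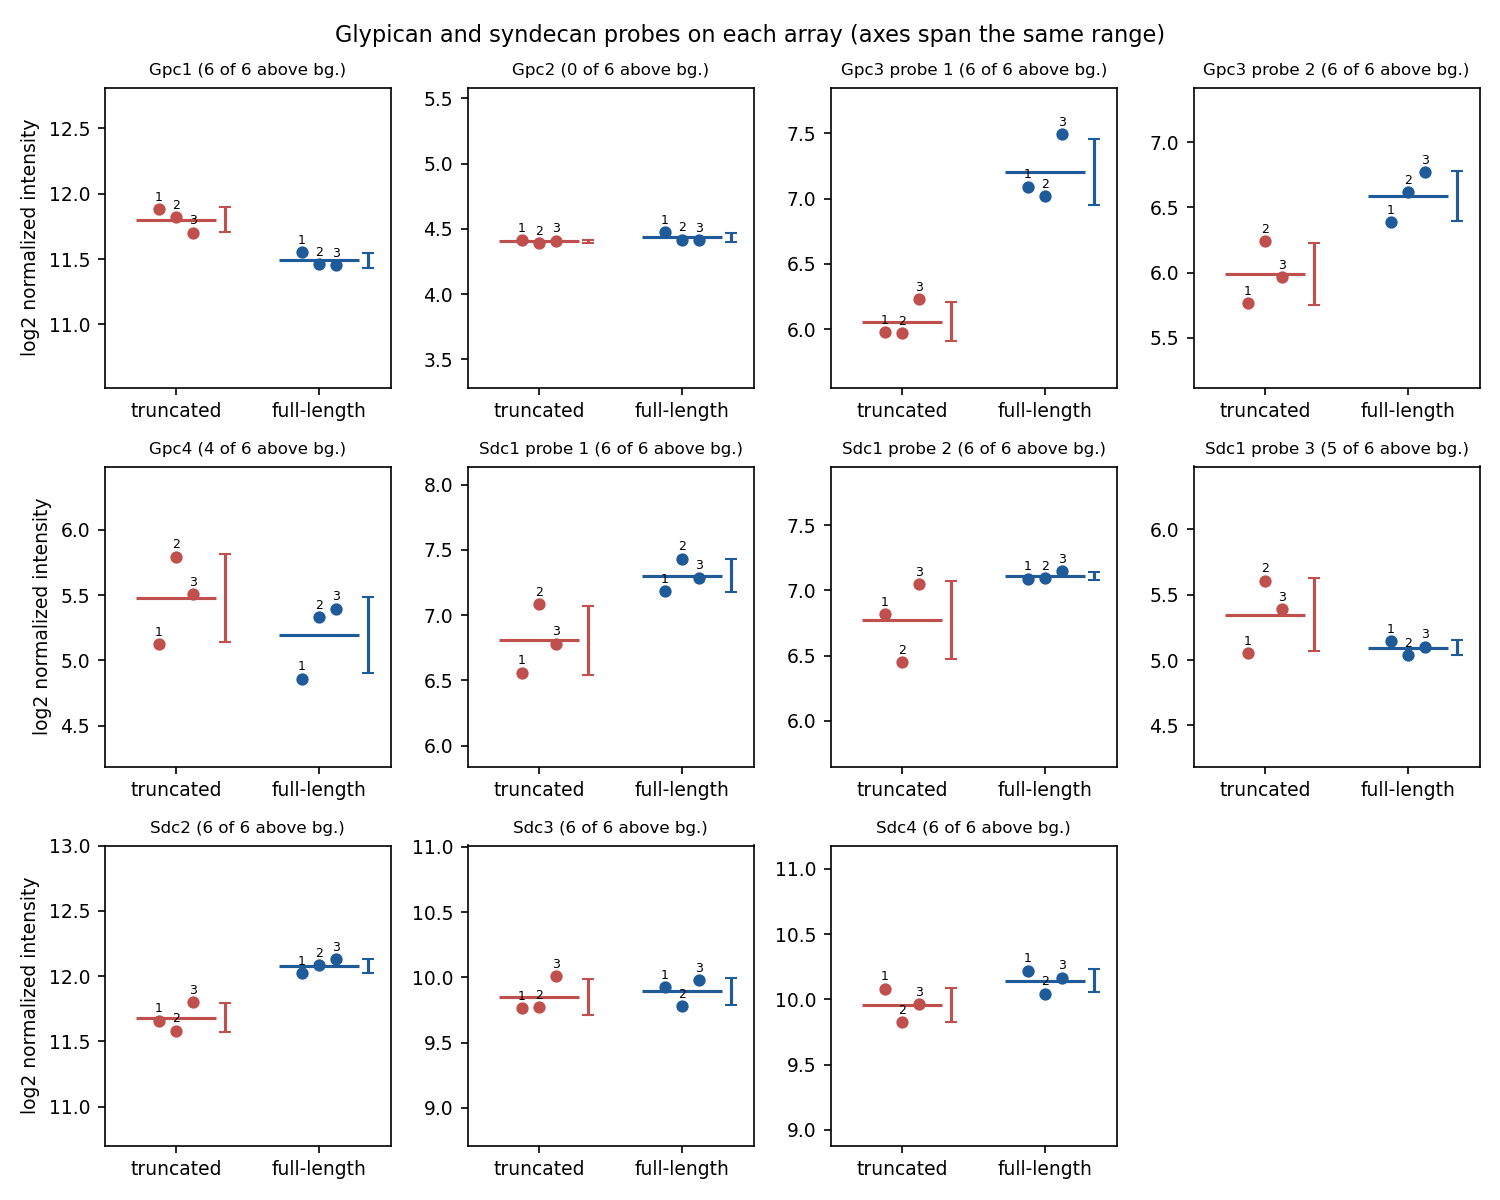
Log2 normalized intensity of the 11 probes of 8 genes on each array, truncated left and full-length right, with the replicate number above each point, the mean as a line and the SD (n = 3) as a bar. All panels span the same range; Gpc3 shows the widest gap, 5.97 to 6.23 in truncated cells against 7.02 to 7.49 in full-length cells on its brighter probe, while Gpc2 is not above background.

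Among the syndecans, Sdc2, the main syndecan of mesenchymal cells, had the difference with the tightest replicates. It read 11.66, 11.58 and 11.80 in truncated cells, against 12.03, 12.09 and 12.13 in full-length cells. The groups did not overlap, and of the truncated arrays replicate 3 was the highest. The log2 fold change was -0.40 ± 0.11, or 1.32-fold lower with truncated NELF-B. The pooled SD was 0.086, and 13.7% of genes had one as small or smaller.

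Sdc1, the syndecan typical of epithelia and plasma cells, had 3 probes that did not move alike. The brightest read 6.56, 7.09 and 6.78 in truncated cells, against 7.18, 7.43 and 7.29 in full-length cells, with a log2 fold change of -0.49 ± 0.15 and no overlap. The next read 6.82, 6.45 and 7.05 in truncated cells, against 7.09, 7.09 and 7.15 in full-length cells, a log2 fold change of -0.34 ± 0.15. For this probe the order rested on the normalization, since the deposited signal of truncated replicate 3, at 264, lay above that of full-length replicate 3, at 253. Truncated replicate 2 was the highest truncated array on the brightest probe and the lowest on this one.

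The dimmest Sdc1 probe went the other way. It read 5.05, 5.61 and 5.39 in truncated cells, against 5.15, 5.04 and 5.10 in full-length cells, a log2 fold change of 0.25 ± 0.14 with overlapping arrays. It was above background on 2 of 3 truncated arrays and on all 3 full-length arrays. The mean over the 3 Sdc1 probes gave -0.19. The epithelial markers summed to 91.2 to 120 in truncated and 89.8 to 125 in full-length cells in background-corrected intensity. Krt18, Cldn4 and Esrp1 were above background on no array. Of the 7 epithelial markers with a probe, 3 were above background on 3 or more arrays.

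Sdc4, the focal adhesion syndecan that works with integrins and protein kinase C alpha, had a small difference. It read 10.08, 9.82 and 9.96 in truncated cells, against 10.22, 10.04 and 10.17 in full-length cells. Truncated replicate 1 lay above full-length replicate 2, so the groups overlapped, and the log2 fold change was -0.19 ± 0.11. This overlap rested on the normalization. The deposited signals were 1045, 1004 and 1212 in truncated cells, against 1362, 1240 and 1231 in full-length cells, and did not overlap. Sdc3, the syndecan of nervous tissue and of muscle progenitors, read 9.77, 9.77 and 10.01 in truncated cells, against 9.93, 9.78 and 9.98 in full-length cells. Its groups overlapped fully, and the log2 fold change was -0.04 ± 0.12. For Sdc3 and Sdc4 the difference in normalized values did not stand clear of the spread between replicates.

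Of the 7 tested members, 5 had values below 0 and 2 above, with a median log2 fold change of -0.19, where the median of all genes was 0.01 and 48.3% of them had values below 0. Truncated and full-length arrays were fully separate for 4 members, beside 25.7% of all genes. Of these members 3 were lower (Gpc3, Sdc1 and Sdc2) and 1 higher (Gpc1), beside 12.8% of all genes lower and 12.9% higher. In the limma fit of all genes, with a Benjamini-Hochberg adjusted p under 0.05, 1 member was called, Gpc3, lower, beside 1.09% of all genes called lower and 0.512% called higher. The count moved between 0 and 3 members with the processing and the arrays kept. It was 3 (Gpc1, Gpc3 and Sdc2) with no background correction, with the series matrix values and with a variance trend and robust eBayes, 2 (Gpc3 and Sdc2) with normexp without controls, and 0 in 5 of the 6 refits with 1 array left out, all but the one without truncated replicate 3. Because this comparison was used to choose the members, nothing is read from any of these counts.

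The members also differed in which truncated array lay nearest to the full-length mean. Truncated replicate 3 was nearest for Gpc1, Gpc3, Sdc2 and Sdc3, 4 of the 7 tested members. Over all genes it was nearest for 45.1%, against 24.7% for replicate 1 and 30.1% for replicate 2. On the brighter Gpc3 probe the truncated arrays stood at -1.23, -1.23 and -0.97 from the full-length mean, and for Gpc1 at 0.40, 0.33 and 0.21. For Sdc2 they stood at -0.42, -0.50 and -0.28. For Sdc1 the order was another one, at -0.74, -0.22 and -0.52.

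**Figure D2:**
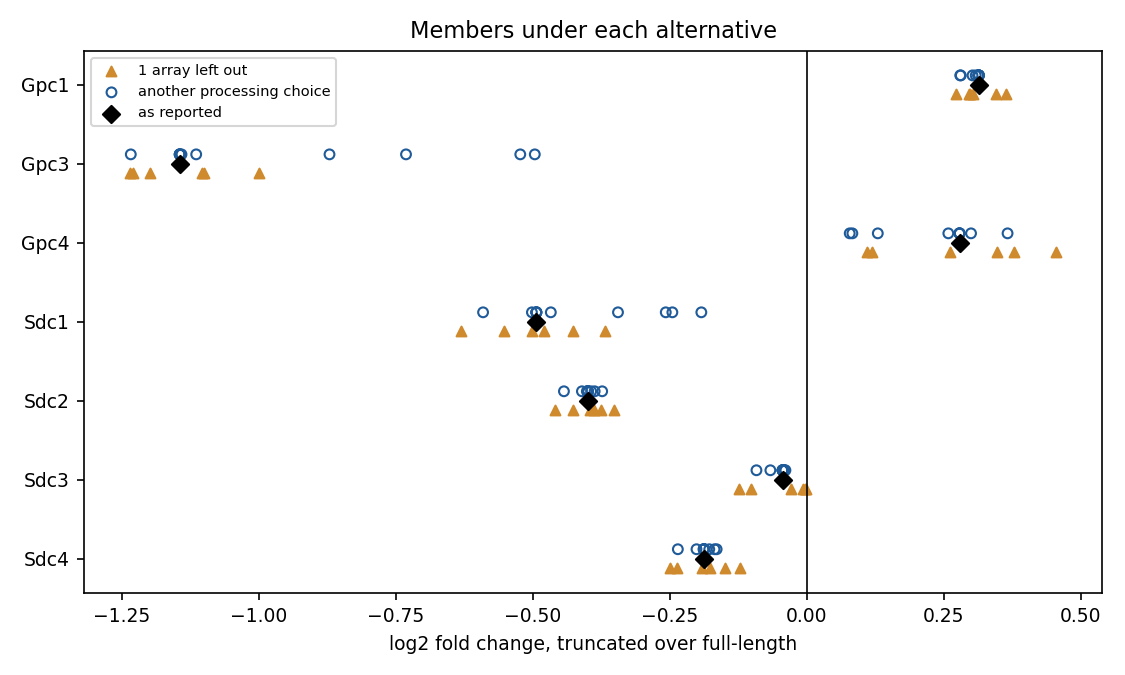
Log2 fold change of the 7 tested members as reported (diamonds), under other processing choices (circles) and with 1 array left out (triangles). Each gene stays on its own side of 0, though Sdc3 comes as close as -0.002, and Gpc3 has the widest range, from -1.23 to -0.50.

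The genes whose profile over the 6 arrays was most like that of Gpc3 were Mfap2, a microfibril glycoprotein gene (Pearson r = 0.996), Pla1a, a phosphatidylserine phospholipase gene (r = 0.996), and Lama1, a laminin chain gene (r = 0.993). Their log2 fold changes were -0.83, -0.61 and -0.69. Within the families Sdc2 followed Gpc3 (r = 0.97) and Gpc1 ran opposite to it (r = -0.95). The other tested members were less close, with Sdc1 at 0.77, Sdc4 at 0.73, Sdc3 at 0.43 and Gpc4 at -0.38. All these coefficients are over the same 6 arrays in the 2 forms, so they mostly restate the difference between the forms, and they are given as a description.

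Some marker sums moved with the lower members and others did not. Each sum adds the intensities of different probes, so bright markers weigh most in it, and differences of single markers are not given. The epithelial sums given above overlapped between the forms. So did the skeletal muscle sums, at 53 to 96.4 in truncated and 67.2 to 89.4 in full-length cells. The fibroblast markers summed to 22200 to 24600 in truncated cells and to 25800 to 30600 in full-length cells. The haematopoietic markers summed to 1750 to 1870 in truncated and 2110 to 2260 in full-length cells, of which Cd14 and Cd68 were above background on all arrays and Adgre1, Lyz2, Itgam, Tyrobp and Fcer1g on none. The endothelial sums were 54.6 to 58.7 in truncated and 61.2 to 87.9 in full-length cells, with Pecam1, Cdh5 and Tie1 above background on no array. These endothelial sums are close to background, since no endothelial marker was above it on all 6 arrays. The neural sums were 193 to 242 in truncated and 248 to 251 in full-length cells, with Map2 above background on all arrays and Sox2, Gfap and Nefl on none. The part of these marker differences in the values of Gpc3, Sdc1, Sdc2 and Gpc1 was not tested.

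The machinery that builds, trims and uses the sugar chains was set beside the core proteins through 11 lists of 146 genes, of which 90 were tested. Of these 90, 1 fell with truncated NELF-B and 89 did not pass, where 1.60% of all genes passed in either direction. Values were above 0 for 45 and below 0 for 45, and the median was 0.00, where the median of all genes was 0.01. Without adjustment, 6 were higher and 10 lower at p under 0.05, a level that 20.1% of all genes tested reached, and the counts at that level below are to be read beside this share. The gene that fell was Ptn.

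Ptn encodes pleiotrophin, a heparan-binding growth factor that binds syndecans, Sdc3 among them. It read 11.51, 11.79 and 11.75 in truncated cells, against 12.33, 12.35 and 12.64 in full-length cells. The groups did not overlap, and the log2 fold change was -0.76 ± 0.13 (adjusted p = 0.0387, limma). Over 17 alternative fits its adjusted p ran from 8.8e-05 to 0.138, and it was lost in 5 of the 6 refits with 1 array left out. Among the other 20 tested ligands and partner receptors none passed. Igf2 stood at -0.38 ± 0.12 and passed in 4 alternative fits, and the integrin subunit gene Itgav stood at 0.35 ± 0.15. Fgfr1, which encodes a receptor for heparan-binding fibroblast growth factors, stood at 0.01 ± 0.11. The probes of Fgf10, a growth factor gene, disagreed. The brightest, which stood for the gene, was at -0.06 ± 0.13, while 2 dimmer probes in the fit of every probe were at 0.75 ± 0.13 and 0.26 ± 0.09.

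No tested gene of the chain-building enzymes passed. The 4 polymerase genes lay close to 0, with Ext1 at -0.02 ± 0.11, Ext2 at -0.18 ± 0.10, Extl2 at -0.04 ± 0.11 and Extl3 at 0.10 ± 0.10, and none of them reached an unadjusted p under 0.05. The products of Ext1 and Ext2 together form the enzyme that elongates heparan sulfate. Of the 6 linkage region genes, whose enzymes attach the first sugars to the core protein, 3 were above 0 and 3 below, and the xylose kinase gene Fam20b alone had an unadjusted p under 0.05 (0.37 ± 0.15, adjusted p = 0.22). B3galt6 stood at 0.25 ± 0.13 and B3gat3 at -0.21 ± 0.13. The 6 genes of sulfate donor and sugar nucleotide supply lay between -0.07 and 0.30, with Papss2 at 0.30 ± 0.23, Bpnt2 at 0.10 ± 0.14 and Slc35b2 at -0.07 ± 0.11 and 0 at an unadjusted p under 0.05.

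Of the sulfotransferases, Hs3st1, which adds the 3-O-sulfate that antithrombin recognises, had the largest value. It read 8.78, 8.79 and 8.26 in truncated cells, against 8.05, 7.97 and 7.77 in full-length cells. The groups did not overlap, but the log2 fold change of 0.68 ± 0.16 did not pass (adjusted p = 0.0763, limma), though it did in 7 of 17 alternative fits. Hs6st3 stood at -0.38 ± 0.17 and Hs2st1 at 0.21 ± 0.14, and neither passed. Sulf1, an extracellular enzyme that removes 6-O-sulfates, stood at 0.25 ± 0.12 and did not pass (adjusted p = 0.273). Of the 16 genes of this step, 5 were tested, and 2 of these had an unadjusted p under 0.05.

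The proteases and other enzymes that release core proteins from the surface had 5 of 6 values below 0 and none that passed, with 1 at an unadjusted p under 0.05. That one was Mmp2, a gelatinase, at -0.43 ± 0.11 with no overlap (adjusted p = 0.0918), which passed in 5 of 17 alternative fits. Mmp9 stood at -0.47 ± 0.21, and the sheddase gene Adam17 at -0.26 ± 0.12. The other proteoglycans had 5 of 7 values below 0 and none passed, with 2 at an unadjusted p under 0.05. Col18a1, a basement membrane collagen with heparan sulfate chains, read 10.62, 10.81 and 10.89 in truncated cells, against 11.40, 11.23 and 11.42 in full-length cells, with no overlap. In limma its difference was -0.58 ± 0.12 on the log2 scale and did not pass, with an adjusted p of 0.0522. Col18a1 passed in 8 of 17 alternative fits. Agrn stood at -0.37 ± 0.13 and passed in 4 alternative fits, while Hspg2, which encodes perlecan, stood at -0.06 ± 0.13 and the part-time proteoglycan gene Cd44 at 0.16 ± 0.20. Gpc5, the remaining glypican, was above background on no array with any of its 3 probes.

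The chondroitin sulfate enzymes, which draw on the same linkage region, had 7 tested genes and none passed, with Chst15 at -0.48 ± 0.13 (adjusted p = 0.0946, past the threshold in 2 of 17 alternative fits), Chst7 at 0.35 ± 0.15 and Csgalnact1 at -0.27 ± 0.20. The partners of the syndecan tail had 6 of 8 values above 0, none passed and none had an unadjusted p under 0.05. Gipc1, a PDZ protein that binds the tail of syndecan-4, stood at 0.28 ± 0.13, Pdcd6ip at 0.19 ± 0.11 and Cask at 0.22 ± 0.14. The PDZ protein syntenin, encoded by Sdcbp, stood at 0.07 ± 0.12. Of 19 genes for the GPI anchor that glypicans need, none passed and 5 had an unadjusted p under 0.05, with Pgap3 at -0.65 ± 0.19, Dpm1 at -0.48 ± 0.15 and Piga at 0.40 ± 0.14.

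**Figure D3:**
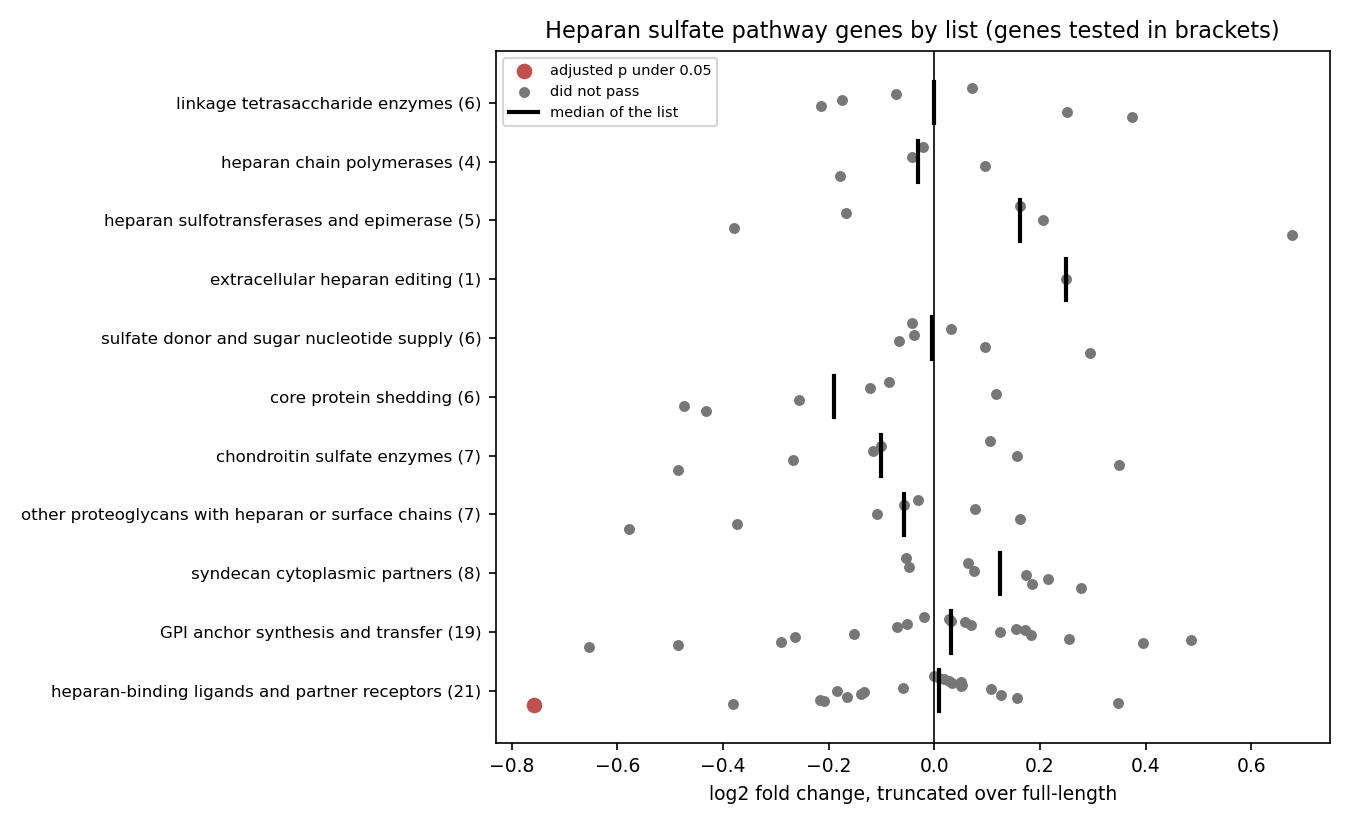
Log2 fold change, truncated over full-length, of the tested genes in each of the 11 lists (number tested in brackets), with the list's median as a bar and the gene with an adjusted p under 0.05 in red. Ptn, at -0.76, is the gene that passed, and the medians lie between -0.19 and 0.25.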

How the data were processed

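Total RNA was amplified and biotin-labelled for Illumina bead arrays of 1 colour, per the labels. The deposited non-normalized table holds 25697 probes, each with its average signal (an intensity, per the file headers) and a detection p-value, also per the file headers. GenomeStudio is named in the submitters' processing notes. Groups came from the sample titles. A second deposited table holds intensities that look quantile normalized and served as an alternative. No column was left unused (0 columns).

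Probes were named through RefSeq (24202 by accession). With limma 3.58.1 in R 4.3.3, intensities were background corrected by normexp with controls inferred from the detection p-values, given an offset of 16, quantile normalized and log2 transformed. The offset shrinks folds of dim probes, while the background correction widens them. For Gpc3 the log2 fold change was -1.14 with the correction and -0.52 without it. A probe had to reach a detection p under 0.05 on 3 or more arrays, the brightest stood for its gene, and genes were tested with lmFit and eBayes, with Benjamini-Hochberg adjustment over 8990 genes. Other member probes come from a fit of every probe. The fit was tested on simulated data. The members and lists were chosen with earlier results of these data known. Named genes are all members, each list's called genes or else the 3 with the smallest p, and the 3 genes most like the leading member. Igf2, Itgav, Fgf10, Fgfr1, Ext1, Hspg2, Gpc5 and Sdcbp were added after their values were seen. Of 23 list genes with a further tested probe, 11 had one of opposite sign. Ptn, Hs3st1 and Mmp2 had no further tested probe, so this check does not bear on them. The other tested Col18a1 probe stood at -0.34 ± 0.15. The number of arrays limits the precision. Promoters are RefSeq's, GRCm38.p6. Figures were drawn with matplotlib 3.10.9.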

Additional observations from a re-analysis of the deposited data

How the results depend on the processing

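In 17 alternative fits every tested member kept its sign (16 for Gpc4, which is not on all arrays), and the members' median stayed between -0.29 and -0.12. Not all of these fits could change a sign. The variance trend, the replicate block and the fit with no filter left the members' fold changes as they were. So did the fit of probes above background on all arrays, in which Gpc4 was not tested. The mean over a gene's tested probes changed only Gpc3 and Sdc1. Sdc3 came as close to 0 as -0.002, which is no clear direction. The members were chosen on this comparison, so nothing is read from the kept signs. Gpc3 ran from -1.23 to -0.50, at -0.52 with no background correction, -0.73 with normexp without controls, -0.50 with the series matrix values and -0.87 with the mean of its probes. Sdc1 ran from -0.63 to -0.19. Counts of called genes moved far more. Against 144 genes, 68.1% of them lower, and 1 list gene, there were 706 (52.5% lower) and 6 with no background correction, 633 (54.8%) and 7 with normexp without controls, 731 (52.1%) and 6 with the series matrix values, 728 (52.9%) and 6 with a variance trend and robust eBayes, 354 and 5 with array weights, 250 and 3 for probes above background on all arrays, 33 (81.8%) and 0 with no filter, and 81 (85.2%) with median scaling. Cyclic loess gave 2 list genes. With 1 array left out, 0 to 274 genes and 0 to 3 list genes were called. With limma no gene was called without truncated replicate 1, where 1193 had an unadjusted p under 0.05, without full-length replicate 1 (1431) or without full-length replicate 2 (1546), and 11 to 16 list genes were under 0.05. There were 9 without truncated replicate 2, 6 without full-length replicate 3 and 274 without truncated replicate 3. Same-numbered samples did not deviate together (correlations of 0.03, -0.16 and -0.14), while truncated replicate 3 and full-length replicate 2 had 0.18. With 3 arrays per form such values cannot show whether samples were paired. With the replicate block 33 genes (90.9% lower) and 0 list genes were called, with 14 list genes at an unadjusted p under 0.05. With no filter 22 list genes were under it. Differences of dim probes such as Gpc4 and the third Sdc1 probe are limited by signal over background.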
